A study of Mus musculus with 8 samples.

Results

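The genes described here are 42 transcription factors, chromatin regulators and cell surface or other marker genes by which haematopoietic stem cells (HSCs) are recognised. They were chosen by symbol, and 42 of 42 were found among the 19909 genes of the authors' table. By role, 31 are nuclear regulators and 11 are surface or other identity genes. RNA was sequenced from HSCs purified from the bone marrow of Gfplc3/Gfplc3 mice, so all groups carry GFP-LC3, a fusion of the autophagosome protein LC3 to green fluorescent protein whose signal falls as autophagosomes are degraded. AThi are HSCs of mice older than 24 months taken from the 33% with the lowest GFP signal (3 libraries, tagged O10, O11 and O12). ATlo are HSCs of the same old mice taken from the 33% with the highest GFP signal (3 libraries with the same tags). Young are HSCs of mice of 8 to 12 weeks that were not divided by GFP (2 libraries, tagged D11 and D12). The old libraries come from 3 mice and the young ones from 2. AThi and ATlo libraries with the same tag were read as 1 mouse, so these groups are paired, whereas age and the GFP gate cannot be told apart in any comparison with young.

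Stem cells of the blood keep their state through a small set of DNA-binding proteins that occupy the same enhancers. GATA2, RUNX1, TAL1, LMO2, LYL1, ERG and FLI1 are known as the heptad, and HLF, MECOM, PRDM16 and MLLT3 act beside them to keep HSCs self-renewing. Other factors, such as PU.1 (Spi1), CEBPA, the Ikaros family and BCL11A, direct cells toward lymphoid, myeloid or erythroid fates. RUNX1, RUNX2 and RUNX3 share a DNA-binding domain, bind the motif TGTGGT together with the partner CBFB, and can be made from a distal or a proximal promoter.

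Runx1 was called higher and Runx3 lower in AThi than in ATlo, and among the members with a promoter window only the RUNX genes held the RUNX motif there. The 3 sequences below are shown for that reason. RefSeq promoter windows on GRCm38.p6, from 250 bases before to 50 after a transcript start, were found for 30 of the 42 genes, in 48 windows. The motif TGTGGT, searched on both strands, was present in 3 of these 48 windows (6.25%), against 16.8% of all 32851 windows of the same length. Each of the 3 belonged to a different RUNX gene. Sequences run 5′ to 3′ on the gene's strand, and capitals mark matches to the motif, here all as its complement ACCACA.
Runx1, chr16:92826025-92826324, minus strand: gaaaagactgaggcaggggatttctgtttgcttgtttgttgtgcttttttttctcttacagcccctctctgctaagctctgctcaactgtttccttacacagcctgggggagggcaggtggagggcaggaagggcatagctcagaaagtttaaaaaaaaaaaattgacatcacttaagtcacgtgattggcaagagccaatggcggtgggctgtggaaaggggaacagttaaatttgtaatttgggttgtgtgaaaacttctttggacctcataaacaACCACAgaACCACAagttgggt
Runx3, chr4:135120395-135120694, plus strand: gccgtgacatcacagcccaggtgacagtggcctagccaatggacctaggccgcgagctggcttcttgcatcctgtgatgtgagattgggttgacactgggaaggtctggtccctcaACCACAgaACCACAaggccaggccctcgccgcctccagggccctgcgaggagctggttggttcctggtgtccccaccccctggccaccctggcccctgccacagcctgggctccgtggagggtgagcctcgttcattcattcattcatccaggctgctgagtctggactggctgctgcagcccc
Runx2, chr17:44814578-44814877, minus strand: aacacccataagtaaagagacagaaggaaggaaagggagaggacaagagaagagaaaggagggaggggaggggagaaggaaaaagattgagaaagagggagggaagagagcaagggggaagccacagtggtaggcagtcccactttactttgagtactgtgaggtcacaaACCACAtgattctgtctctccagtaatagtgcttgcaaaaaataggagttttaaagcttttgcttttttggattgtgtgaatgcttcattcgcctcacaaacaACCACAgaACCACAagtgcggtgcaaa

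The 3 windows share the 18 bases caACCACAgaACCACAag, which hold 2 copies of the motif. In the 300 bases shown, this stretch lies at 277 to 294 for Runx1, 115 to 132 for Runx3 and 272 to 289 for Runx2. Among all 32851 windows, searched on both strands, the stretch was found in 4, those of the RUNX genes and of Gm16225. A match is a description of the letters and not evidence of binding. The counts do not separate transcripts by promoter, so the values below are sums over all transcripts of a gene.

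Other motifs were searched in the same windows and on both strands. The ETS motif GGAAGT was in 5 of the 48 windows (10.4%, against 23.8% of all windows), at Satb1 and Tie1. The GATA motif AGATAA was in 4 (8.33%, against 11.2%), at Erg, Ldb1, Tal1 and Tek. The E-box CAGNTG, the motif of TAL1 and LYL1 with their partners, was in 20 (41.7%, against 51.4%). Each motif was counted on its own, so matches of different motifs may overlap.

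Library totals were 33960216 to 45830216 reads for AThi, 54512285 to 61341946 for ATlo and 44021141 to 45590508 for young. All 42 genes could be measured at this depth, and 41 had 10 or more normalised counts in every library. The exception was Cebpa, listed at 0 in 3 libraries. HSC markers (Kit, Ly6a, Slamf1, Procr and Hoxb5) were present in all 8 libraries, with summed levels of 37877 to 53167 normalised counts in AThi, 30633 to 43311 in ATlo and 32516 to 36265 in young. Procr was the 1 of these 5 called between AThi and ATlo, beside 7.9% of all genes. It had 4070 to 4834 in AThi, 2000 to 2909 in ATlo, and 2321 and 2844 in young. Its log2 fold change was 0.95 (DESeq2 adjusted p = 1.02e-05 in the authors' deposited table). The libraries tagged 12 stood apart. Their summed B cell markers were 24366 in AThi O12, 10419 in ATlo O12 and 11051 in young D12, against at most 992 in the other 5 libraries. Young D11 was the 1 library with a high level of Xist, at 97743 normalised counts. The libraries tagged 12 had 5810 in AThi, 2747 in ATlo and 3869 in young, against 32.5 to 171 in the other 4. The young libraries thus differed widely in Xist, and the part of this difference in the comparisons with young was not tested. Of the 9 B cell markers, Pax5, Ms4a1 and Cd22 are not in the table. Summed markers of dividing cells were 39830 to 48592 in AThi, 100389 to 113253 in ATlo and 59520 to 74790 in young, and 8 of 8 were called lower in AThi than in ATlo. These markers move with the AThi and ATlo groups, and their part in the results below was not tested. In bulk RNA, fewer cells of a type and less RNA per cell cannot be told apart.

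**Figure D1:**
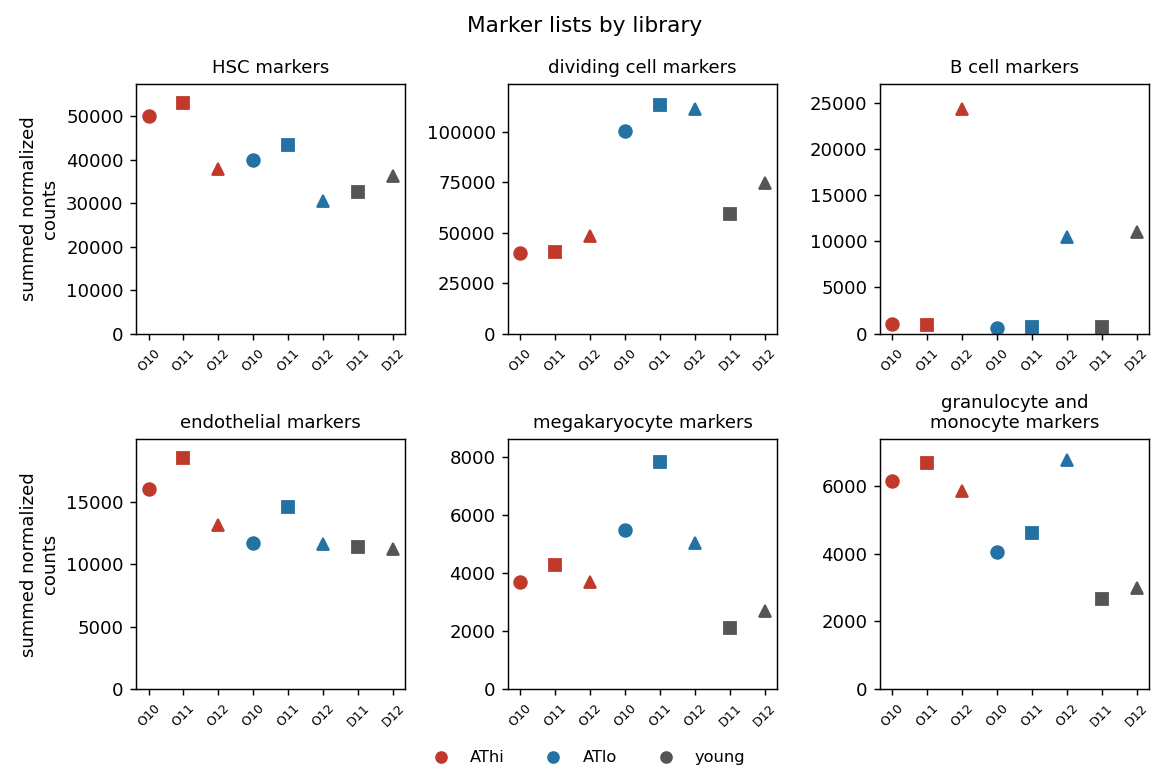
Summed normalised counts of 6 marker lists in each of the 8 libraries, with AThi in red, ATlo in blue and young in grey. B cell markers stand out in the 3 libraries tagged 12 (O12, O12 and D12), and markers of dividing cells are lowest in AThi and highest in ATlo.

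Levels spanned a wide range, compared between genes as normalised counts per kilobase of exon. In AThi the highest were Lmo2 at 8914, Angpt1 at 8490 and Hlf at 5996 per kilobase. In ATlo the same 3 genes led at 8257, 7152 and 4171 per kilobase. In young they were 6672, 7463 and 6302 per kilobase. Lmo2 encodes the bridging subunit of the TAL1 complex, and Angpt1 the ligand of the receptor TEK. At the low end in AThi were Cebpa at 8.35, Satb1 at 33.0 and Mn1 at 33.9 per kilobase. Gprc5c was the lowest of all in young, at 3.00 per kilobase, against 52.3 in AThi and 34.8 in ATlo.

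AThi and ATlo HSCs differed in nuclear regulators. Hlf, Mecom, Mllt3, Nkx2-3, Runx1 and Bcl11a were higher in AThi, by 0.41 to 0.72 on the log2 scale, and Runx3 was lower by 0.83. In the authors' deposited table (DESeq2 Wald test, Benjamini-Hochberg adjusted p under 0.05) these made 7 of 42 members, against 7.9% of all genes tested. Over all genes 3.47% were called higher and 4.43% lower. All 7 were among the 31 nuclear regulators and 0 among the 11 surface and other identity genes, where the authors' deposited table has 0.092 as its lowest adjusted p. Of those 11, 3 had an unadjusted p under 0.05 (Clec1a, Fgd5 and Pdzk1ip1), and edgeR called 0. DESeq2 with the mouse as a block called these 3, so the split by role depended on the test. The median log2 fold change of the 42 genes was 0.24, beside 0.03 over all genes.

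Hlf, a PAR bZIP factor that marks and maintains HSCs, had 43491, 39546 and 37147 normalised counts in AThi O10, O11 and O12, against 30339, 28326 and 24927 in the ATlo libraries of the same mice. Young libraries had 43818 and 40385. AThi lay above ATlo in each mouse without overlap, with 1 AThi library within the young range and 2 below it. The log2 fold change in the authors' deposited table was 0.52 ± 0.12 (SE; adjusted p = 0.0003). Hlf is 1 of 3 members that edgeR's quasi-likelihood test also called, with an adjusted p of 0.0378, and its call was kept in 19 of 19 alternative settings (another tool, scaling or filter, the mouse as a block, or libraries left out), that p being the highest of them.

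Mecom encodes EVI1, a zinc finger factor needed for long-term repopulation. It had 15873, 13488 and 13247 normalised counts in AThi, against 10417, 10076 and 7897 in ATlo, and 13954 and 10560 in young. The AThi and ATlo values did not overlap, with young D11 inside the AThi range and D12 just above the ATlo range. The authors' deposited table gives 0.59 ± 0.16 on the log2 scale (adjusted p = 0.0053). Without AThi O10 or ATlo O12 the adjusted p of Mecom no longer passed.

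Mllt3 (AF9), a reader of acylated histones in the elongation and DOT1L complexes that sustains HSC self-renewal, had 15675, 12681 and 13819 normalised counts in AThi. ATlo had 10689, 8035 and 7897, and young had 11107 and 10447. Every AThi value was above every ATlo and young value. The log2 fold change of AThi over ATlo in the authors' deposited table was 0.66 ± 0.15 (adjusted p = 0.0004).

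Nkx2-3, a homeobox factor, was at 466 normalised counts per kilobase in AThi, rank 25 of the 42 genes. Its normalised counts were 1028, 918 and 1005 in AThi, 726, 497 and 564 in ATlo, and 728 and 679 in young. AThi again lay above both other groups. The authors' deposited table gives 0.72 ± 0.21 (adjusted p = 0.011), but this call was lost in 9 of 19 alternatives, among them without AThi O10, AThi O12, ATlo O11 or ATlo O12.

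Runx1, the heptad member needed for the first HSCs to form, had 16668, 15505 and 16827 normalised counts in AThi, against 12270, 12211 and 12474 in ATlo. Young had 15474 and 15770. The 3 ATlo values were within a narrow band below all 5 others. The log2 fold change of AThi over ATlo was 0.41 ± 0.09 (adjusted p = 0.000123) in the authors' deposited table. Without the 3 libraries tagged 12 it was 0.39 with a DESeq2 adjusted p of 0.0901, the highest of 19 alternatives, which began at 6.5e-05.

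Runx3, better known for T cell and NK cell development, went the other way. It had 1442, 1810 and 1827 normalised counts in AThi, against 2480, 3407 and 3128 in ATlo, and 1595 and 1715 in young. Each ATlo value was above all AThi and young values. The log2 fold change of AThi over ATlo was −0.83 ± 0.17 (adjusted p = 0.00011) in the authors' deposited table, and the call was kept in 19 of 19 alternatives. Runx2, the RUNX factor of bone formation, had 4807, 3930 and 2260 in AThi, 4207, 3235 and 2859 in ATlo, and 4650 and 4374 in young. AThi overlapped with both other groups, while the ATlo values of Runx2 were below both young values (adjusted p = 0.57 in the authors' deposited table).

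Bcl11a, a zinc finger repressor known for silencing fetal globin and for B cell development, had 15125, 14239 and 13715 normalised counts in AThi. ATlo had 11842, 9732 and 9544, and young had 12576 and 12811. The 3 groups did not overlap, with young between the old fractions. The authors' deposited table gives AThi over ATlo as 0.47 ± 0.12 (adjusted p = 0.0024). Over 19 alternatives the log2 fold change of Bcl11a stayed between 0.41 and 0.58, with adjusted p from 1.63e-05 to 0.1. The call was lost in 4 of them, with edgeR with or without the mouse block, without both fractions of mouse O11, and without the libraries tagged 12.

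**Figure D2:**
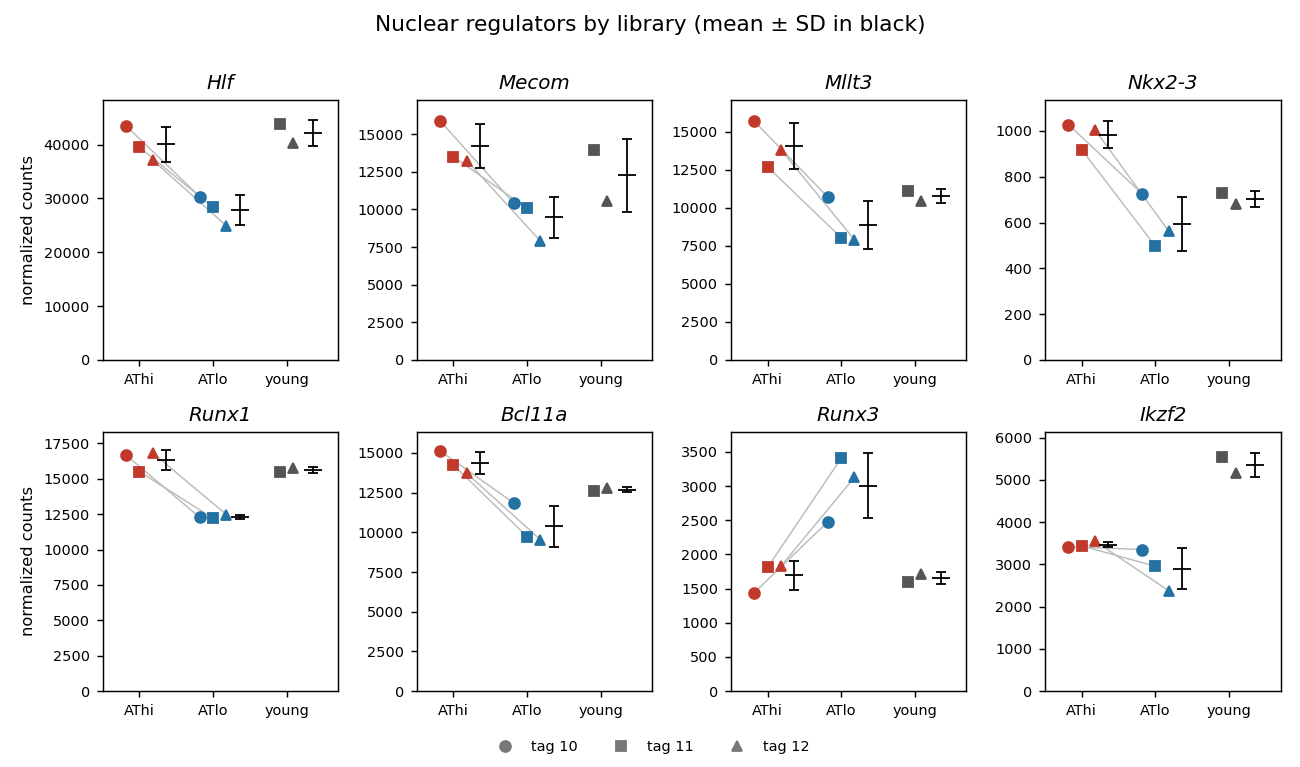
Normalised counts of 8 nuclear regulators by group, with a point per library, grey lines joining the AThi and ATlo libraries of 1 mouse, and black marks for the mean ± SD (n = 3 AThi, 3 ATlo, 2 young). Runx3 is highest in ATlo, at 2480 to 3407, whereas Hlf and Runx1 are lowest there.

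The other heptad members did not pass the test between AThi and ATlo. Gata2 had 12243, 11865 and 11438 normalised counts in AThi, against 7808, 11273 and 11227 in ATlo, and 8317 and 8480 in young. Its AThi values lay above all others, ATlo spanned both young values, and only mouse O10 showed a wide gap, at a log2 ratio of 0.65 against 0.07 and 0.03 in the other mice. Gata2, a zinc finger factor that HSCs depend on, had an adjusted p of 0.43 in the authors' deposited table. Erg, an ETS factor, had 14295, 13412 and 13528 in AThi, 12822, 12428 and 11082 in ATlo, and 11434 and 9272 in young. AThi exceeded ATlo in each mouse, by 0.11 to 0.29 on the log2 scale.

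Tal1 and Lyl1 are related bHLH factors that bind E-boxes. Tal1 had 4492, 4423 and 3967 normalised counts in AThi, 4553, 4926 and 5015 in ATlo, and 3950 and 3869 in young. Lyl1 had 1972, 2990 and 2392 in AThi, 2601, 3128 and 2880 in ATlo, and 2252 and 2454 in young. Both were lower in AThi in 3 of 3 mice, and neither was called (adjusted p = 0.42 for Tal1 and 0.54 for Lyl1 in the authors' deposited table). Lmo2 had 23067, 18174 and 16680 in AThi, 20867, 17601 and 15183 in ATlo, and 13656 and 15245 in young. Fli1, the second ETS factor of the heptad, had 12202, 11766 and 13563 in AThi, 11589, 14504 and 12606 in ATlo, and 9957 and 11996 in young. Lyl1, Lmo2 and Fli1 overlapped between AThi and ATlo. Lmo2 was higher in AThi in 3 of 3 mice, by 0.05 to 0.14 on the log2 scale, and Fli1 in 2 of 3. Spi1 (PU.1), the myeloid ETS factor, had 944, 1118 and 1044 in AThi, 1081, 850 and 903 in ATlo, and 1055 and 1449 in young, and it overlapped in all groups.

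Over the 42 genes, AThi and ATlo values did not overlap for 15, of which 12 were higher and 3 lower in AThi, against 21.3% of all genes (10.3% higher, 10.9% lower). All 3 mice moved the same way for 29 genes, 22 higher and 7 lower in AThi, against 40.5% of all genes (21.1% higher, 19.4% lower). The same count was 16 higher and 7 lower for nuclear regulators. Among surface and other identity genes 6 were higher and 0 lower. Of the 24 nuclear regulators not called, log2 fold changes ran from −0.55 (Mn1) to 2.23 (Cebpa). Mn1 had 159 to 393 normalised counts over the libraries, and Gfi1b, at −0.54, had 965 to 2934. The upper end belongs to a gene with few counts. Cebpa had 0, 66.1 and 0 normalised counts in AThi, 0, 7.94 and 6.22 in ATlo, and 62.3 and 106 in young.

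Because the fractions come from the same mice, the test was also fitted with the mouse as a block. That fit called 12 of the 41 members it gave an adjusted p for (10.4% of all genes), 10 higher and 2 lower in AThi (5.13% and 5.26% of all genes). By role these were 9 of 30 nuclear regulators (30%) and 3 of 11 surface and other identity genes (27.3%). The 5 added were Clec1a, Fgd5, Pdzk1ip1 and Zfp521, higher in AThi, and Gfi1b, lower. Clec1a had the lowest adjusted p of the 5 (0.000126, log2 fold change 0.49 ± 0.11), and Fgd5, Pdzk1ip1, Gfi1b and Zfp521 had 0.0147 to 0.0263. With edgeR, 3 members were called without the block (Hlf, Runx1 and Runx3; 1.41% of all genes) and 4 with it (Hlf, Mecom, Mllt3 and Runx3; 1.52%).

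Among those added by pairing, Fgd5, a guanine exchange factor whose locus is used to mark HSCs, had 2679, 2632 and 2067 normalised counts in AThi, against 1780, 1932 and 1505 in ATlo, and 1660 and 2373 in young. The fractions did not overlap, and the log2 ratio was 0.45 to 0.59 in the 3 mice. Gfi1b, a repressor needed for red cell and platelet development that also restrains HSC cycling, had 1310, 965 and 1996 in AThi, 1662, 1621 and 2934 in ATlo, and 1082 and 1184 in young. O12 was the highest mouse in both fractions, and within each mouse AThi was below ATlo, by log2 ratios of −0.34, −0.75 and −0.56. Pdzk1ip1 lies next to Tal1 on chromosome 4 in GRCm38 (115088708 to 115093899, beside 115056426 to 115071755, both on the plus strand). Pdzk1ip1 was higher in AThi in 3 of 3 mice while Tal1 was lower in 3 of 3.

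**Figure D3:**
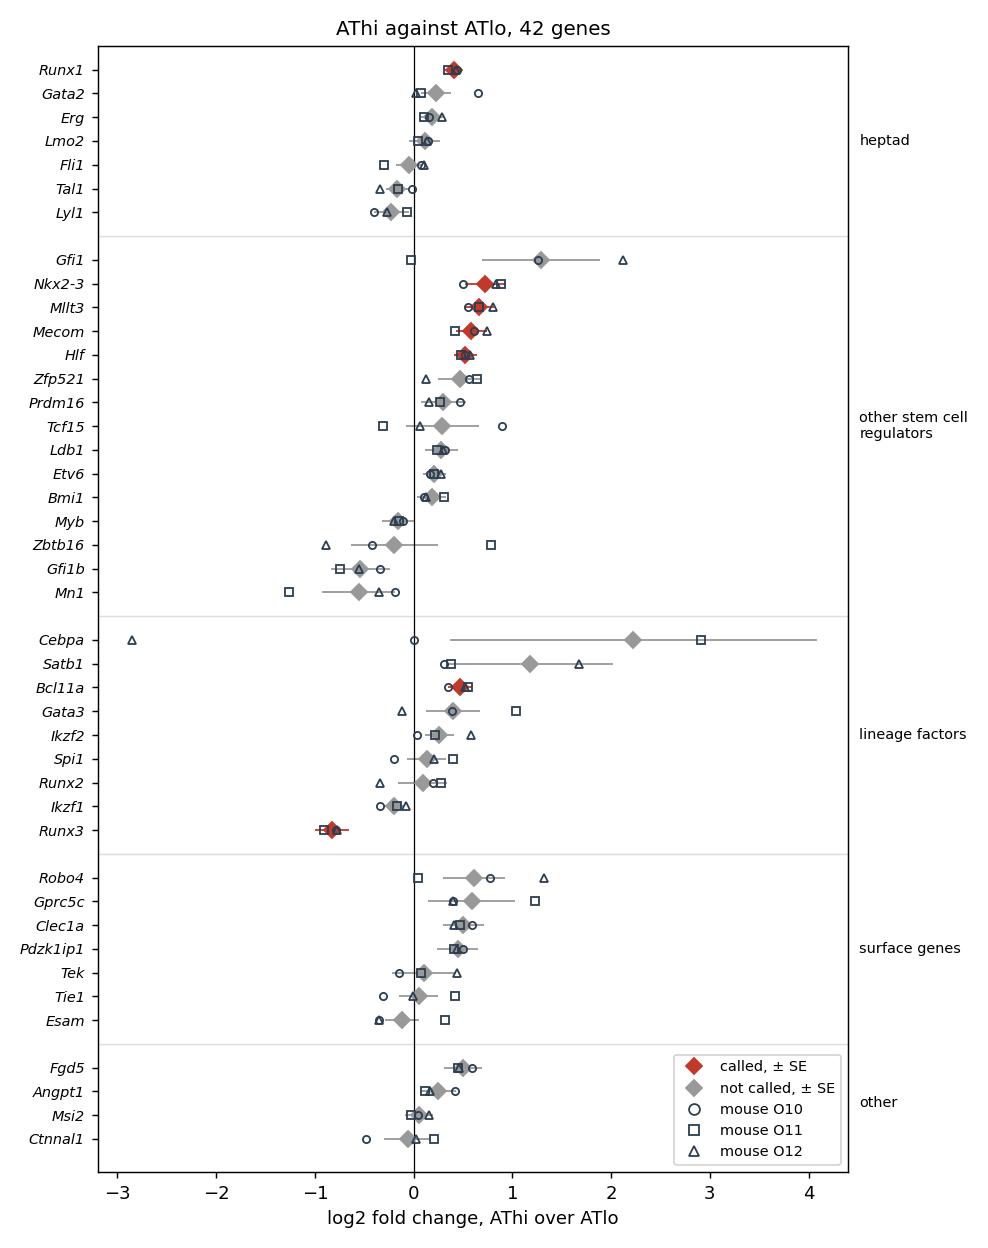
Log2 fold change of AThi over ATlo for the 42 genes by role, as diamonds with SE bars from the authors' deposited table (red where called) and as open points for the 3 mice. Runx3 is the 1 called gene to the left of 0, and Cebpa and Gfi1 show the widest spread between mice.

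Against young HSCs both nuclear regulators and surface genes were called. Clec1a and Gprc5c were several-fold higher in AThi, Erg and Prdm16 were modestly higher, and Ikzf2 and Tek were lower. The authors' deposited table thus calls 6 of 42 members, 4 higher and 2 lower, against 5.04% of all genes (3.13% higher, 1.91% lower). In ATlo, 7 of 42 members were called against young, beside 4.34% of all genes (2.37% higher, 1.98% lower). Clec1a, Gprc5c and Runx3 were higher in ATlo, and Hlf, Runx1, Ikzf2 and Tek were lower. With edgeR, 2 members were called in AThi (1.21% of all genes) and 3 in ATlo (0.653%). Both comparisons use the same 2 young libraries, so their fold changes are not independent. The median log2 fold change over the 42 genes was 0.13 for AThi and −0.07 for ATlo, beside 0.00 and 0.01 over all genes.

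Clec1a, a C-type lectin-like receptor known from endothelium, had 10129, 7187 and 5997 normalised counts in AThi, 6711, 5207 and 4520 in ATlo, and 1757 and 1768 in young. Every old library was far above both young ones. The authors' deposited table gives log2 fold changes over young of 2.14 ± 0.23 in AThi (adjusted p = 2.2e-17) and 1.64 ± 0.23 in ATlo (adjusted p = 6.4e-10). Gprc5c, a retinoic acid inducible orphan receptor that marks dormant HSCs, had 299, 228 and 296 in AThi, 226, 96.9 and 225 in ATlo, and 12.5 and 19.0 in young. Its old and young values did not overlap either. In the authors' deposited table it was higher than young by 4.12 ± 0.56 in AThi (adjusted p = 2.8e-11) and 3.54 ± 0.56 in ATlo (adjusted p = 4.7e-08). Clec1a and Gprc5c were called against young in 19 of 19 alternatives for each fraction. Summed endothelial markers were 13145 to 18495 normalised counts in AThi, 11603 to 14555 in ATlo and 11223 to 11352 in young, with Cdh5 not in the table. Summed megakaryocyte markers were 3689 to 4290 in AThi, 5054 to 7850 in ATlo and 2114 to 2689 in young. Both sums were above young in every old library, but the endothelial genes did not move together. Vwf was 4138 to 6480 in the old libraries, against 1334 and 1451 in young. Emcn went the other way, at 495 to 951 in the old libraries, against 2339 and 1387 in young. With Vwf left out, the endothelial sum of every old library but AThi O11 was below those of both young libraries. The part of these markers in the surface gene results was not tested.

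Tek (TIE2), the angiopoietin receptor of quiescent HSCs and endothelium, was called lower than young in both fractions, with 1 young library far above all others. It had 2825, 2743 and 3011 normalised counts in AThi, 3137, 2614 and 2227 in ATlo, and 2982 in young D11 but 10119 in young D12. D11 lay within the range of the old libraries. In the authors' deposited table the log2 fold change was −1.20 ± 0.36 in AThi (adjusted p = 0.022) and −1.30 ± 0.36 in ATlo (adjusted p = 0.012). Without young D12 these were −0.06 and −0.17, with DESeq2 adjusted p of 0.988 and 0.895. Over 19 alternatives the adjusted p of Tek ran from 2.84e-13 to 0.9997 in AThi and from 1.02e-14 to 0.997 in ATlo. The call was lost in 12 of them for AThi and 13 for ATlo, among them edgeR, the fits on 2 groups only, and those without any 1 AThi library, where the log2 fold changes of Tek were −1.17 to −1.23 in AThi and −1.30 in ATlo. Summed endothelial markers were 11352 in D11 and 11223 in D12, with Emcn at 2339 and 1387 and Eng at 5167 and 6077, and their part in the Tek values was not tested.

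Ikzf2 (Helios), an Ikaros family factor, had 3425, 3442 and 3551 normalised counts in AThi, 3353, 2956 and 2380 in ATlo, and 5555 and 5158 in young. Both young libraries were above all 6 old ones. The authors' deposited table gives −0.63 ± 0.17 for AThi (adjusted p = 0.0061) and −0.89 ± 0.17 for ATlo (adjusted p = 1.2e-05). In AThi the call of Ikzf2 was lost in 6 of 19 alternatives, among them edgeR with or without a block and leaving out either young library. In ATlo it was lost in 1, edgeR with a block. Ikzf1 (Ikaros), its relative, had 8567, 9568 and 9464 in AThi, 10884, 10764 and 9963 in ATlo, and 11282 and 11977 in young. The AThi comparison fell just short (adjusted p = 0.051 in the authors' deposited table).

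Prdm16, a zinc finger regulator of HSC maintenance, had 3176, 3159 and 2479 normalised counts in AThi, 2296, 2625 and 2229 in ATlo, and 2159 and 1161 in young. The groups did not overlap between old and young, and the young libraries differed widely. The log2 fold change of AThi over young was 0.82 ± 0.25 in the authors' deposited table (adjusted p = 0.026). It was 0.44 without young D12, with a DESeq2 adjusted p of 0.463, where 19 alternatives ran from 2e-06 to 0.463. Erg had 0.41 ± 0.13 (adjusted p = 0.045) in the same comparison, and this call was lost in 13 of 19 alternatives.

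**Figure D4:**
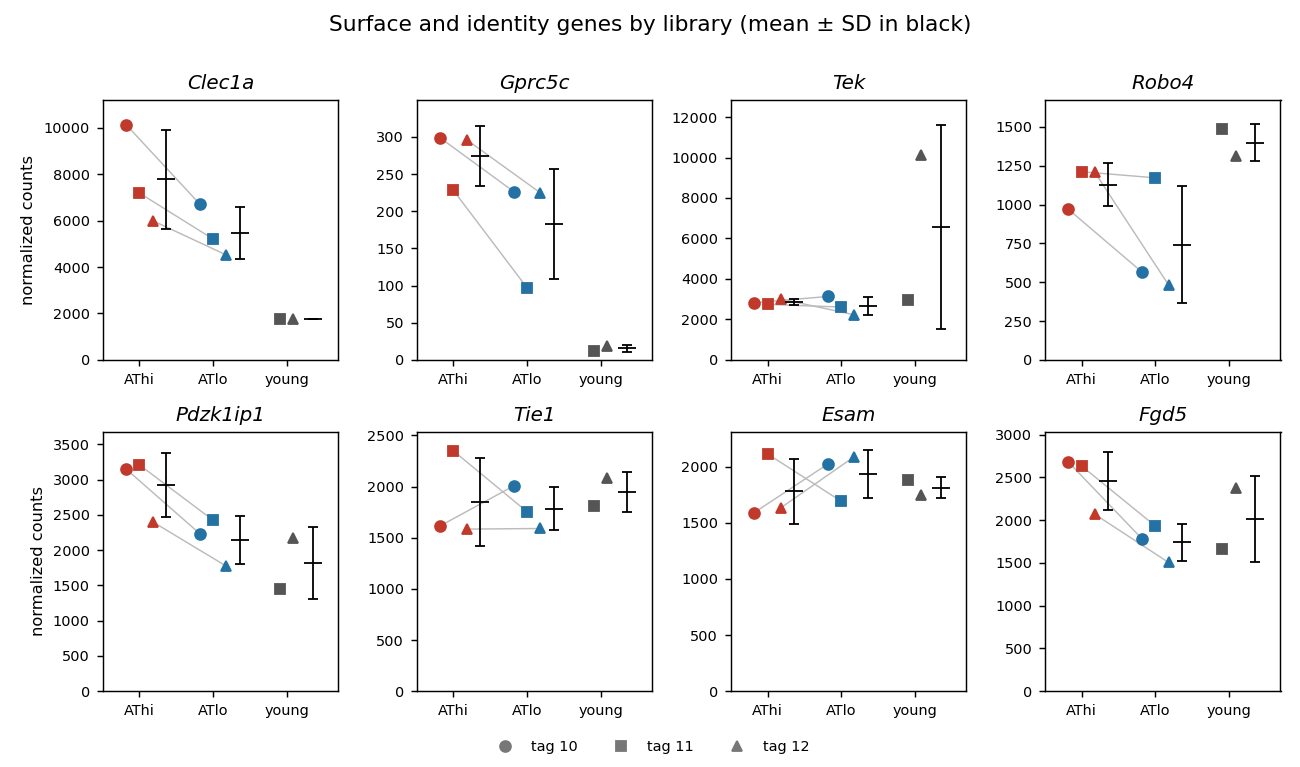
Normalised counts of 7 surface genes and Fgd5 by group, with a point per library, grey lines joining libraries of 1 old mouse, and black marks for the mean ± SD (n = 3 AThi, 3 ATlo, 2 young). Clec1a and Gprc5c are higher in all old libraries, and the high young mean of Tek comes from D12 alone, at 10119.

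Hlf, Runx1 and Runx3 were called in ATlo against young and not in AThi against young. The log2 fold change of ATlo over young was −0.60 ± 0.13 for Hlf (adjusted p = 0.00033 in the authors' deposited table). This call of Hlf was lost in 2 of 19 alternatives, with edgeR without a block and without young D11. AThi over young was −0.07, with a 95% interval of −0.32 to 0.18. For Runx1 ATlo over young was −0.34 ± 0.10 (adjusted p = 0.014 in the authors' deposited table), a call lost in 11 of 19 alternatives, and AThi over young was 0.06, with an interval of −0.12 to 0.25. For Runx3 ATlo over young was 0.86 ± 0.19 (adjusted p = 0.00068 in the authors' deposited table). That call was lost in 3 of 19 alternatives, with edgeR without a block, without young D11 and without the libraries tagged 12. For Runx3 AThi over young was 0.03, with an interval of −0.35 to 0.42. The difference between these fold changes is the AThi and ATlo contrast itself, which was called for all 3 genes.

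Mecom, Mllt3, Nkx2-3 and Bcl11a, also called between the fractions, were not called against young in either one in the authors' deposited table. For Mllt3 the values were 0.38 in AThi (interval 0.06 to 0.71) and −0.28 in ATlo (interval −0.61 to 0.05). For Mecom they were 0.21 (interval −0.13 to 0.56) and −0.37 (interval −0.72 to −0.03). For Bcl11a they were 0.18 (interval −0.08 to 0.44) and −0.29 (interval −0.55 to −0.03). In each of these genes the young mean lay between the AThi and ATlo means. These intervals are not adjusted for the number of genes.

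**Figure D5:**
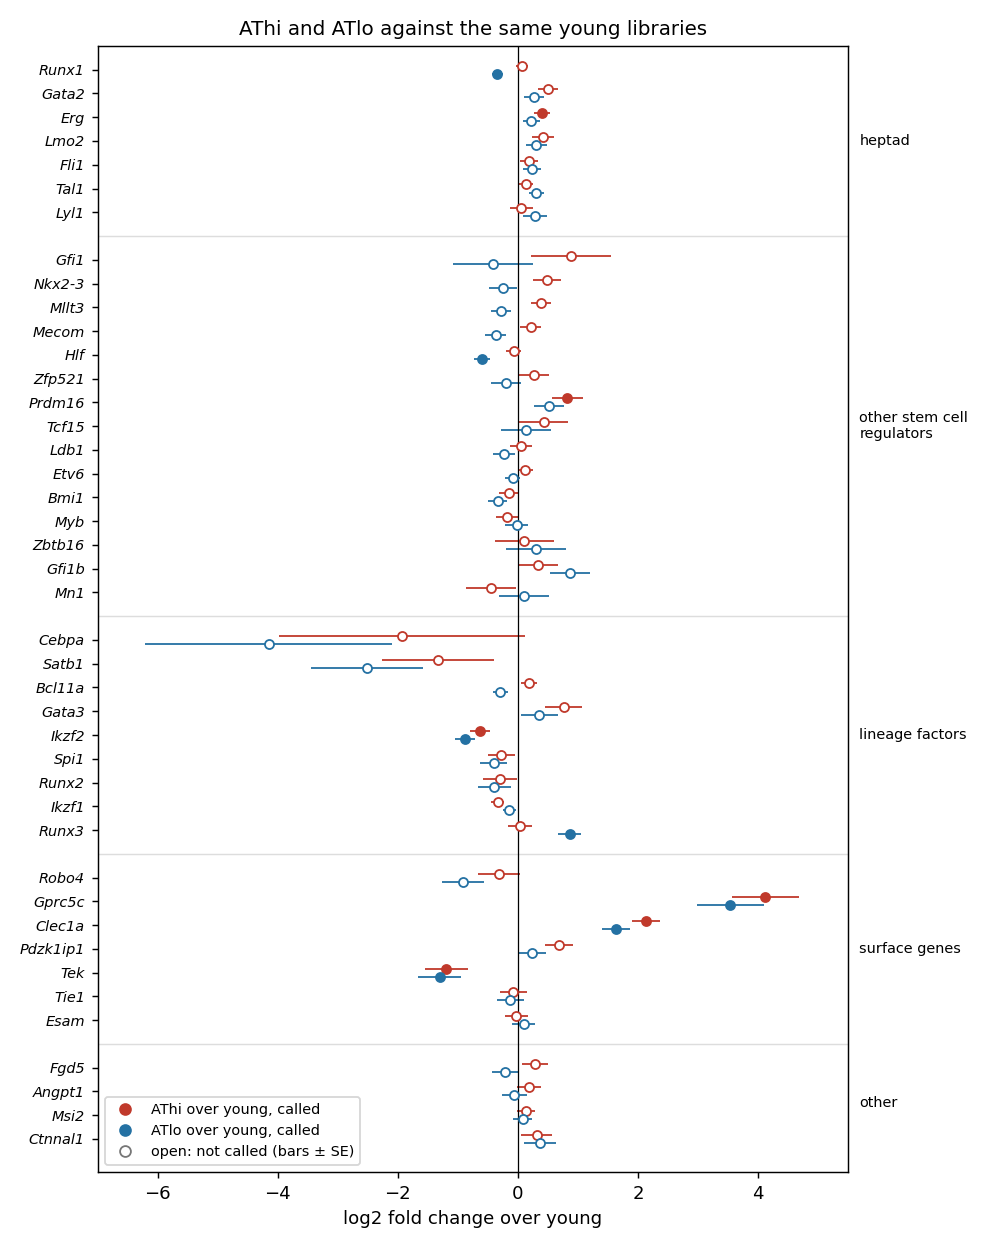
Log2 fold change over young for the 42 genes by role in the authors' deposited table, AThi in red above ATlo in blue, with SE bars and filled points where called. Clec1a and Gprc5c lie far to the right in both fractions, and Hlf and Runx1 are called to the left in ATlo. Both fractions share the 2 young libraries.

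The remaining surface and identity genes were not called in the authors' deposited table. Robo4, a guidance receptor that anchors HSCs in the niche, had 969, 1211 and 1206 normalised counts in AThi, 565, 1172 and 483 in ATlo, and 1483 and 1314 in young. ATlo O11 sat with the AThi libraries, apart from the other ATlo ones. Without ATlo O11, Robo4 was called higher in AThi than in ATlo, by 1.11 on the log2 scale (DESeq2 adjusted p = 4.61e-05), and lower in ATlo than in young, at −1.42 (DESeq2 adjusted p = 6.99e-07). Over 19 alternatives the adjusted p of Robo4 ran from these values up to 0.806 for AThi against ATlo and 0.555 for ATlo against young. Esam and Tie1, endothelial and HSC surface proteins, ran from 1591 to 2113 and from 1584 to 2347 in AThi. In ATlo they ran from 1691 to 2090 and from 1590 to 2007, and young values lay within the AThi ranges of both genes. Angpt1 had 56549, 41924 and 34091 in AThi, 42362, 38830 and 30490 in ATlo, and 39035 and 38650 in young. Mouse O10 was highest and O12 lowest in both fractions. Msi2, an RNA-binding protein of stem cells, and Ctnnal1 (alpha-catulin), a reporter locus for HSCs, overlapped in all groups.

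A few nuclear members varied with single libraries. Gfi1, a repressor related to Gfi1b, had 152, 194 and 651 normalised counts in AThi, 62.9, 197 and 149 in ATlo, and 183 and 180 in young. Satb1, a chromatin organiser of lymphoid progenitors, had 304, 200 and 1379 in AThi, 245, 154 and 432 in ATlo, and 1143 and 2011 in young. In each group Satb1 was highest in the library tagged 12, the one with B cell RNA, and it was not called in the authors' deposited table. Without the libraries tagged 12 it was called lower than young, at −2.18 in AThi and −2.52 in ATlo on the log2 scale (DESeq2 adjusted p = 0.00509 and 0.000663). Over 19 alternatives the adjusted p of Satb1 ran from 1.85e-08 to 0.956 in AThi and from 1.22e-10 to 0.564 in ATlo. Zbtb16 (PLZF) differed between the young libraries, at 179 in D11 and 590 in D12. Myb, which drives progenitor proliferation, was highest in O12 within each old fraction, at 22026 in AThi and 25240 in ATlo, against 20366 and 21297 in young.

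Partner genes were counted from lists by function. The calls between AThi and ATlo given here for cofactors, Polycomb and elongation genes are those of DESeq2, and edgeR made 0 calls in these 3 lists. Of 17 cofactors of the heptad, the authors' deposited table calls 2 higher and 1 lower in AThi than in ATlo, beside 3.47% and 4.43% of all genes. Cbfb, the partner subunit of all RUNX proteins, had 5416, 4934 and 5204 normalised counts in AThi, against 5946, 8102 and 8009 in ATlo, and 5844 and 5742 in young. Every AThi value was below every ATlo value, as for Runx3 and opposite to Runx1. Its log2 fold change was −0.50 ± 0.14 (adjusted p = 0.00984 in the authors' deposited table). Tcf4, an E-protein partner of TAL1 and LYL1, was higher in AThi, where the authors' deposited table has 0.46 ± 0.15 (adjusted p = 0.032). Against young, 0 of the 17 cofactors were called in AThi (3 had an unadjusted p under 0.05, and edgeR called 0). In ATlo 1 was called, beside 4.34% of all genes, and edgeR called 0. It was Ssbp4, an LDB1-binding protein (adjusted p = 0.0321 in the authors' deposited table). Ssbp4 had 949, 684 and 938 normalised counts in ATlo, against 356 and 499 in young.

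Of 18 subunits of Polycomb repressive complex 1, the complex of Bmi1, 2 were called higher in AThi than in ATlo and 0 lower in the authors' deposited table, beside 3.47% and 4.43% of all genes, and the mouse block called 1, Phc3. Phc3 had 8403, 6694 and 7586 normalised counts in AThi, against 5291, 5348 and 4747 in ATlo, and 7565 and 8321 in young. ATlo was below all other libraries. The authors' deposited table gives 0.56 ± 0.13 for AThi over ATlo (adjusted p = 0.000438) and −0.63 ± 0.14 for ATlo over young (adjusted p = 0.000573). Cbx7, the chromobox subunit that favours HSC self-renewal, was higher in AThi than in ATlo, with 0.87 ± 0.28 in the authors' deposited table (adjusted p = 0.0333), but with the mouse as a block its DESeq2 adjusted p was 0.0971. Bmi1 itself had 3245, 3273 and 2827 in AThi, 3007, 2649 and 2586 in ATlo, and 3831 and 3098 in young, and it was not called.

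Mllt3 works with elongation and DOT1L complexes, and 16 of 17 listed genes of these were measured. Between AThi and ATlo the authors' deposited table calls 3 higher and 1 lower, beside 3.47% and 4.43% of all genes. Ell2, an elongation factor, had 2073, 2114 and 2094 normalised counts in AThi, against 1547, 1211 and 1059 in ATlo, and 2217 and 1824 in young. Dot1l, the histone H3 lysine methyltransferase, had 585, 587 and 554 in AThi, against 932, 960 and 1119 in ATlo, and 822 and 634 in young. Neither gene overlapped between the fractions, and they moved in opposite directions, Ell2 by 0.72 ± 0.18 (adjusted p = 0.00235) and Dot1l by −0.80 ± 0.19 (adjusted p = 0.00138), both in the authors' deposited table. Against young, 0 were called in AThi, where 3 had an unadjusted p under 0.05 and edgeR called 0. In ATlo 2 were called, both lower (1.98% of all genes), and edgeR called 0. The authors' deposited table gives −0.48 ± 0.12 for Mllt10 (adjusted p = 0.00392) and −0.67 ± 0.20 for Ell2 (adjusted p = 0.0285).

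Other lists held no call between AThi and ATlo. These were 13 measured Ikaros and NuRD genes, 13 ETS factors, 11 CEBP and myeloid genes and 12 genes of the TIE pathway. Their counts at an unadjusted p under 0.05 were 3, 2, 0 and 3 in that order, edgeR called 0 in each, and the mouse block called 1 Ikaros and NuRD gene and 1 TIE pathway gene. In the TIE pathway, Grb7, an adaptor that binds TEK, had 255, 41.8 and 218 normalised counts in AThi and 83.3, 44.5 and 37.3 in ATlo. It had 0 reads in both young libraries. Against a floor of 3 reads per young library, the mean of Grb7 was at least 54.5-fold higher in AThi and at least 17.5-fold higher in ATlo. The AThi mean rests mostly on O10 and O12. The authors' deposited table calls both (adjusted p = 5.98e-07 and 0.000117). With edgeR the AThi comparison of Grb7 was called (adjusted p = 0.0201) and the ATlo one was not (0.059). Ptprb, a phosphatase that acts on TEK, had 0, 24.2 and 26.2 in AThi, 4.71, 4.76 and 0 in ATlo, and 127 and 184 in young. All old libraries were below young, and the authors' deposited table calls the ATlo comparison (adjusted p = 0.00293) and not the AThi one (0.183). With edgeR neither comparison of Ptprb was called (adjusted p = 0.175 in ATlo and 0.396 in AThi). These counting limits cover counting error only.

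The authors also deposited an upstream regulator table for AThi over ATlo, in which an activation score sums the directions of a regulator's known targets. It lists 726 regulators, 11 of them members here, and 9 of those have a score. Tal1 had the most negative of the 9 in the authors' deposited table, at −3.87 over 16 targets (overlap p = 1.42e-05), and is marked there as inhibited. Spi1 had the most positive, at 2.25 over 10 targets (an overlap p of the authors, 0.0857), and is marked as activated. The RNA of neither gene was called between AThi and ATlo. Over the whole of the authors' deposited table, 88 regulators scored −2 or less and 62 scored 2 or more. The other 7 lay between −1.76 (Myb) and 1.89 (Cebpa), and Ldb1 and Lmo2 had the same score, −0.58, from the same 12 targets. Of the 7 members called in AThi against ATlo, Nkx2-3 is the 1 with a score, −0.94 in the authors' deposited table, while its RNA was higher in AThi.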

How the data were processed

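About 10000 HSCs per library were used, per the labels, with libraries prepared together; 2 sort days are named and not tied to libraries. Per the submitters' processing notes the tools were FastQC, MultiQC, STAR, featureCounts and DESeq2 on GRCm38; the sources used here give no versions. The authors deposited normalised counts (a signal: reads divided by a size factor), log2 fold changes, Wald statistics (a score) and p-values for 3 comparisons, plus activation scores of an upstream regulator table. Whole reads were recovered from the deposited normalised counts for 100% of values (tolerance 0.01 reads). A DESeq2 refit on them gave the authors' calls again, 1414, 961 and 811 of all genes for AThi against ATlo, AThi against young and ATlo against young.

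The deposited test was the main one. Alternatives, fitted on all genes, were edgeR 4.0.16 quasi-likelihood, DESeq2 1.42.0 with TMM factors, other low-count filters (10 reads in 2 libraries, or none), 2 groups only, a replicate block and leaving out libraries; scripts were tested on simulated data. TMM shifted log2 fold changes by at most 0.0053. Per-mouse log2 ratios used a pseudocount of 1. The series' design takes AThi and ATlo from the same 3 mice; column tags shared by the fractions were read as the mouse, and deviations from group means correlated within mice (r = 0.209, 0.164 and 0.373 for O10, O11 and O12, over 13611 genes with a mean of 100 or more). The young share only a number with them. Young D12 still had r of 0.184 with AThi O12 and 0.182 with ATlo O12, so such correlations cannot by themselves identify a mouse. Exon lengths and positions are from GENCODE M21 (GRCm38).

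Members and lists were chosen with earlier results of these data known. Values per library are given for each member called in at least 1 comparison and for Hlf, Mecom, Gata2, Runx1, Tal1, Lyl1, Lmo2, Erg, Fli1, Spi1, Tek and Fgd5. From each partner list, up to 2 called genes per comparison with the lowest adjusted p are named. Other members are named as examples chosen after their values were seen. The libraries are from 3 old and 2 young mice, per the labels. Counting limits cover counting error only, since reads carry no molecular identifiers. Some marker genes are not reported here and were left out of the marker sums.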

Additional observations from a re-analysis of the deposited data

How the results depend on the processing

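No direction of a member's value turned round at a called result in the 19 alternatives. For AThi against ATlo, 7 members were called in the deposited test, 3 with edgeR, 12 with DESeq2 and a replicate block, 4 with edgeR and a replicate block, and 4 without the libraries tagged 12, a setting chosen after seeing the data. Leaving out libraries gave 5 to 10. For AThi against young, 6 became 2 with edgeR and 2 with edgeR and the replicate block (0.859% of all genes), and leaving out libraries gave 3 to 7. For ATlo against young, 7 became 3 with edgeR, 12 with DESeq2 and a replicate block (5.89% of all genes), and 4 with edgeR and the block (0.563%), and leaving out libraries gave 5 to 8. A block that ties young to old by number rests on the number only (r of deviations 0.067 and 0.078 for tag 11, 0.184 and 0.182 for tag 12). Young D11 had a higher r with the libraries of another number, at 0.123 for AThi O10 and 0.108 for ATlo O10. With DESeq2 and that block, ATlo against young gained Bcl11a, Mecom, Mllt3, Runx2 and Satb1, all lower, and Gfi1b, higher, and lost Tek. AThi against young gained Gata2 and Satb1 and lost Tek. The block with edgeR gained 0 members in any comparison. Over all genes edgeR called 280, 240 and 130 for the 3 comparisons, and its split for AThi against ATlo was 60 higher and 220 lower, against 621 and 793. The cause of these differences between tools was not tested.

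Groups of 2 and 3 limit what these tests can call. Without young D12 the calls against young of Tek in both fractions, of Prdm16, Erg and Ikzf2 in AThi, and of Runx1 in ATlo were lost. Without young D11 those of Ikzf2 in AThi and of Hlf, Runx1 and Runx3 in ATlo were lost. Each of these was also lost in other alternatives. Hlf and Runx3 were called between AThi and ATlo in all 19 alternatives, and Clec1a and Gprc5c against young in all 19.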
